A study of Mus musculus with 12 samples.

Results

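Chloroquine given alone was compared with no treatment in tumors of the mouse sarcoma line BVMA01R. The comparison rests on 6 of the 12 libraries of the study: 3 labelled chloroquine and 3 labelled no treatment. All 12 tumors carry the genotype label Myf5-Cre;p53-/-;Ass1-/- and come from female C57BL/6J mice. Cre was thus driven by the promoter of Myf5, a gene of muscle precursors, and the untreated tumors carry the same deletions as the treated ones. The other 6 libraries, 3 of ADI-PEG20 and 3 of ADI-PEG20 with chloroquine, serve here mainly to set the spread between libraries and to look at chloroquine on a second background. ADI-PEG20 is a pegylated enzyme that breaks down arginine. The labels give no dose, duration or mouse age, and they do not say that the 3 libraries of a group came from separate animals. The p-values below therefore measure only the spread between these libraries. BVMA01R is 1 cell line, so no spread between independent tumor lines enters the comparison.

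Chloroquine is a weak base that collects in acidic compartments and raises their pH. It blocks breakdown inside lysosomes and the clearance of autophagosomes, and cells commonly answer lysosomal stress through the factors Tfeb, Tfe3 and Mitf, which bind CLEAR sites in the promoters of lysosomal genes. The same acidic compartments serve the endosomal receptors for nucleic acids, release iron from transferrin and cholesterol from lipoproteins, and process peptides for MHC class II. The RNA was that of whole tumors, so that fewer cells of a type and less RNA per cell cannot be told apart in any value below.

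The 6 libraries held 15501998 to 24960414 reads assigned to genes, and 1 read was worth 0.0400 to 0.0638 CPM, the unit of read counts scaled to library size. Levels are given as CPM, the deposited log2 values turned back to the linear scale, so that they include the 0.5 read added by the authors and a gene with no read shows a few hundredths of a CPM. Values are listed for replicates 1, 2 and 3 of each group in that order, and the replicates have no order among themselves. Differences are chloroquine minus untreated on the log2 CPM scale, with a standard error (SE) from limma. Ass1 gave 6.85, 9.42 and 10.4 CPM in the untreated libraries and 11.3, 11.7 and 18.9 CPM with chloroquine, and Trp53 gave 13.0, 20.1 and 26.7 and 18.1, 21.2 and 25.4 CPM. Counts per gene do not show which exons were lost in the line, and host cells carry both genes. The noncoding RNA Gm26917 took 16.4% of the reads in untreated 2 and 7.83% to 9.86% in the other 5 libraries. Untreated 3 lay nearer to the chloroquine libraries than untreated 1 and untreated 2 did in several gene groups below, and chloroquine 3 was highest in the immune groups.

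No gene passed. Of 16335 features, 0 had an adjusted p under 0.05 in limma's test (0% called), and the smallest adjusted p was 0.999. An unadjusted p under 0.05 was found for 555 features (3.4%), fewer than the 816.75 that the threshold alone would give, with 337 higher (2.06%) and 218 lower (1.33%). Scaled by total reads alone the split was 411 higher and 102 lower, and the median over all features then moved to 0.048. The 3 chloroquine libraries lay wholly above the 3 untreated ones for 603 features (3.69%) and wholly below them for 607 (3.72%). The authors' deposited table of this comparison also holds 0 genes with an adjusted p under 0.05, and 475 with an unadjusted p under 0.05. The median SE of a difference was 0.264 and the median 95% interval, without adjustment, reached 0.569 to either side. A typical gene with a change of less than about this size could not have been separated from none even on its own. Adjustment over 16335 features asks for more, and the protease gene Mmp10, at -2.87, did not pass it. Larger changes than 0.569 can thus have been missed too. Without untreated 3 the number with an unadjusted p under 0.05 was 1356, and the smallest adjusted p was 0.162. Nothing below is therefore called changed, and "higher" and "lower" describe these 6 libraries. The median difference over all features was -0.0044, and 49.3% of features were higher, which is the background for each list below. The lists were chosen with earlier results of these data known, so their counts describe these libraries and are not independent support.

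**Figure D1:**
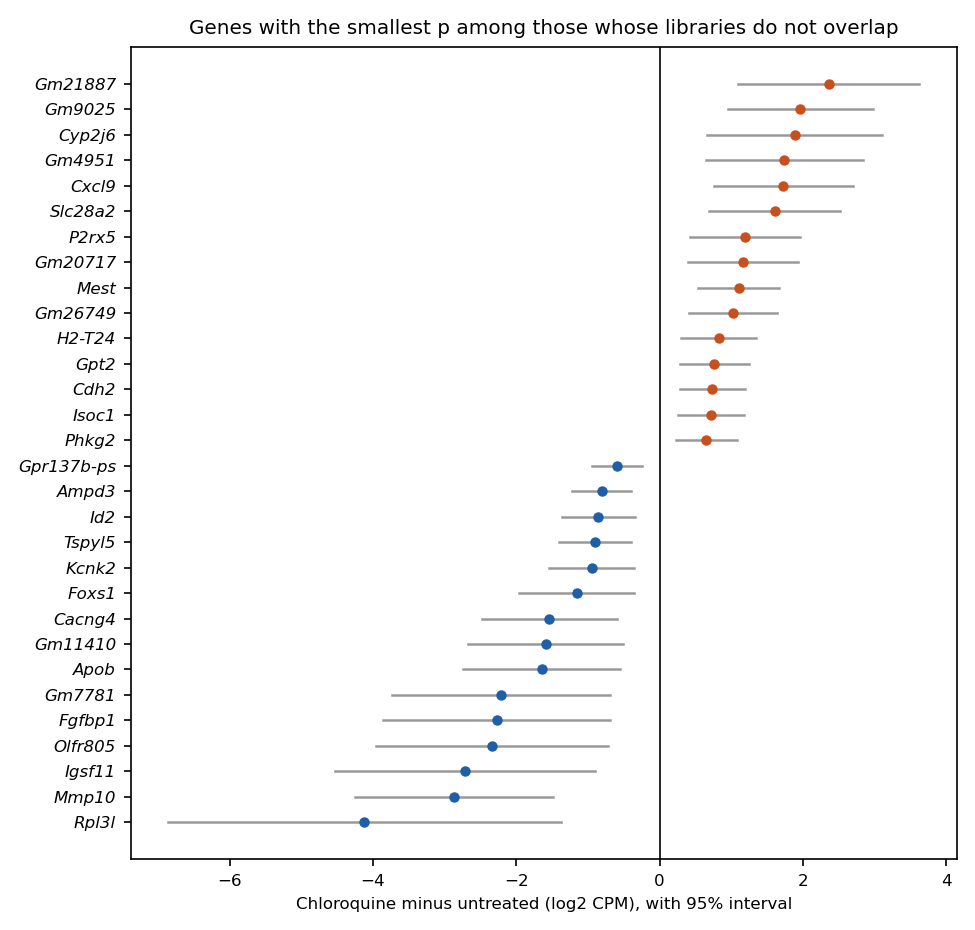
Difference between chloroquine and untreated libraries (log2 CPM, horizontal axis) for the 15 higher and 15 lower genes with the smallest unadjusted p among those whose libraries did not overlap and whose group mean reached 0 log2 CPM. Points are limma estimates and lines their 95% intervals. The intervals leave out 0 because the genes were picked for a small p, and none of the 30 had an adjusted p under 0.05.

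The compartment on which chloroquine acts showed little difference in RNA. Of 41 lysosomal enzymes, 26 were higher and 15 lower, with a median difference of 0.034. Of 30 lysosomal membrane proteins, 20 were higher and 10 lower (median 0.050). With 1 library left out the medians ran from 0.02 to 0.128 and from -0.007 to 0.149. The major membrane glycoprotein Lamp1 was at 528, 489.5 and 535 CPM in untreated libraries and 557, 498 and 485 CPM with chloroquine, a difference of -0.013 with a 95% interval of -0.29 to 0.26. The aspartic protease cathepsin D, Ctsd, was at 726, 709 and 634 and 882, 639 and 614 CPM (difference 0.029, interval -0.40 to 0.46). For both genes the groups overlapped and the interval stayed within 0.5 on the log2 scale to either side. Lamp2 (-0.020), the cysteine protease Ctsb (-0.21) and the cholesterol exporter Npc1 (0.18) had intervals that included 0 as well, and of these only Npc1 had groups that did not overlap.

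The smallest unadjusted p of the lysosomal enzymes belonged to a phospholipase. Pla2g15, a lysosomal phospholipase that cationic amphiphilic drugs inhibit, was at 53.4, 48.9 and 48.4 CPM in untreated libraries and 97.2, 62.7 and 64.8 CPM with chloroquine. All 3 chloroquine libraries lay above all 3 untreated ones, by 0.55 on average (SE 0.19, unadjusted p = 0.012, adjusted p = 0.999, limma). It was the only member of either lysosomal list with a p under 0.05. At this threshold 2.06% of all features were higher, so that 1 gene in lists of 41 and 30 is no more than the background. The next enzymes by p were the arylsulfatase Arsb (0.47), the mannosidase Man2b1 (0.33) and the glucosidase Gaa (0.43), all higher and all overlapping. Among membrane proteins they were the amino acid transporter Slc36a1 (0.35), the nucleoside transporter Slc29a3 (0.44) and the membrane receptor Scarb2 (0.27), the last with no overlap between groups. Without overlap, 1 lysosomal enzyme was higher and 2 were lower, and 2 membrane proteins were higher and 1 was lower. Over all features 3.69% were higher and 3.72% lower without overlap.

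The proton pump that acidifies lysosomes lay lower. Of 18 subunits in the table, 13 were lower and 5 higher, with a median of -0.11, and none had a p under 0.05. The catalytic subunit Atp6v1a was at 119, 90.1 and 90.0 CPM in untreated libraries and 75.1, 83.5 and 78.6 CPM with chloroquine, a difference of -0.32 (SE 0.15). Its groups did not overlap, and neither did those of Atp6v1g1 (-0.25). Of 9 MiT factors and their regulators, 8 were lower (median -0.17). The exception was Tfeb itself at 16.4, 18.7 and 14.5 against 17.8, 19.5 and 30.4 CPM (0.42, SE 0.22), of which chloroquine 3 alone lay far above the untreated range. Mitf differed by -0.11, and the list median was -0.091 without untreated 2 and -0.28 without untreated 3. The CLEAR core was searched as TCACGTGA, which is its own reverse complement, in the 250 bases before the start in RefSeq promoter windows (GRCm38.p6), found for 11296 of 16334 symbols in the table. In each motif search a gene counted if any of its windows held the motif. The CLEAR core was present for 1.66% of the genes with a window. It was present in 3 of 33 lysosomal enzymes (Ctsa, Ctsd and Gla), in 2 of 25 membrane proteins (Cln3 and Mcoln1) and in 1 of 12 pump subunits, Atp6v1a. The stretch is shown because Atp6v1a had the smallest p of the pump list, with the site in capitals, at chr16:44139337-44139436 (minus strand):
Atp6v1a: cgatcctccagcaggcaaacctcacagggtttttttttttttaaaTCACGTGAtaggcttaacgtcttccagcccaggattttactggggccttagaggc

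The autophagy genes were balanced. Of 30 genes of the autophagy machinery, 15 were higher and 15 lower with a median of 0.0085, none with a p under 0.05. The autophagosome protein Map1lc3b was at 96.9, 100.1 and 84.4 CPM in untreated libraries and 97.3, 86.0 and 81.7 CPM with chloroquine (difference -0.087, interval -0.42 to 0.25). The smallest p values of the list belonged to Gabarapl2 (-0.30) and Wipi2 (-0.24), and the starvation-responsive Gabarapl1 differed by -0.22. Of 12 autophagy receptors, 8 were lower. The receptor Sqstm1, whose protein builds up when autophagy is blocked, was at 324, 414 and 295 and 285, 249.6 and 351 CPM of RNA (-0.22, interval -0.64 to 0.20). The mitophagy receptor Bnip3l differed by -0.35 (SE 0.15), the only one of the list with a p under 0.05. Over all features 1.33% were lower at that threshold. Bnip3 differed by -0.74 and Nbr1 by -0.22. Both Bnip3 genes are also known hypoxia targets.

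Sterol genes are a common readout of cholesterol held back in lysosomes. Of 25 genes of cholesterol synthesis, 20 were lower and 5 higher (median -0.12), and none had a p under 0.05. The synthase Hmgcs1, an early step of the pathway, was at 90.1, 62.9 and 57.9 against 68.6, 84.8 and 42.5 CPM (-0.14). The lanosterol synthase Lss (-0.46) and Insig1, which holds the sterol-regulated factors in the endoplasmic reticulum, (-0.31) had the smallest p values. On the export side, 6 of 10 genes were higher, with the phospholipid transfer protein Pltp at 0.76 and the exporter Abca1 at -0.40. The transferrin receptor Tfrc, which iron shortage raises, was at 118, 77.2 and 76.3 against 85.4, 103 and 50.7 CPM (-0.22), and 8 of 13 iron genes were lower. Of the sterol and iron genes named here, all but Insig1 had overlapping groups. The list median of cholesterol synthesis was 0.022 without chloroquine 3, -0.21 without chloroquine 2 and -0.039 without untreated 1, and that of iron handling was -0.035 without untreated 2, -0.065 without untreated 1 and -0.19 without untreated 3.

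**Figure D2:**
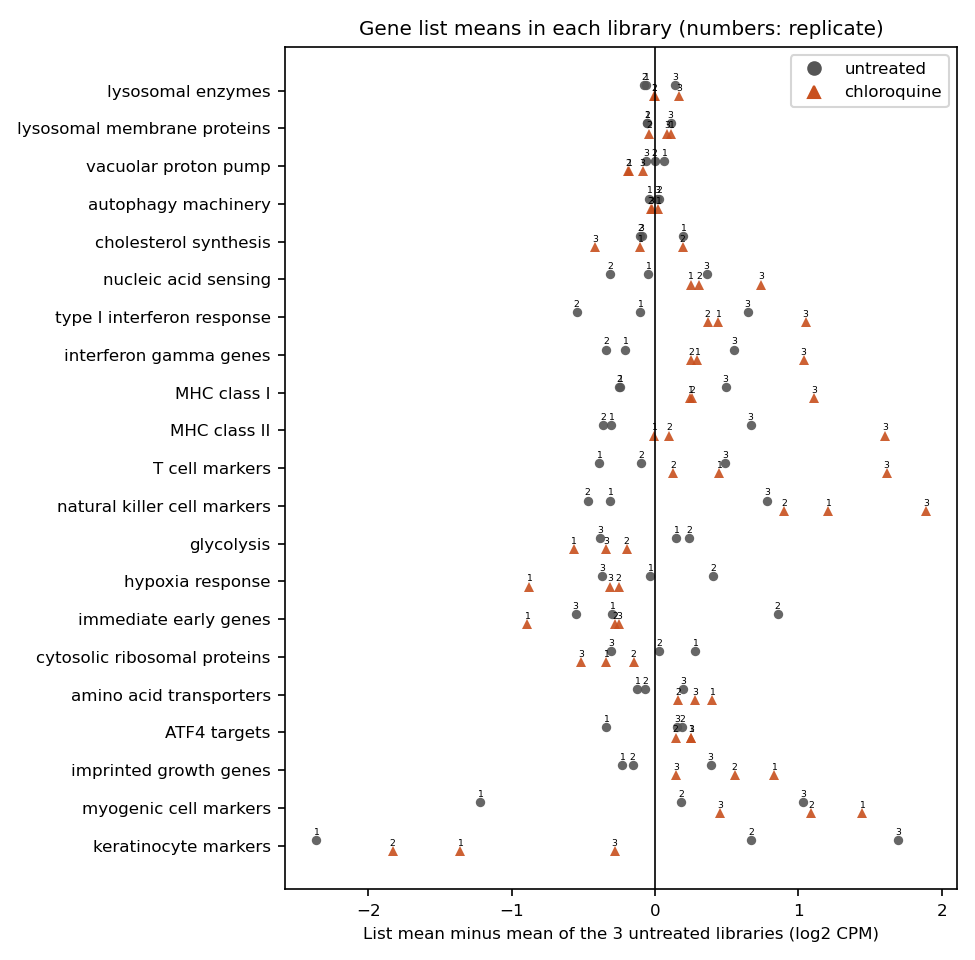
Mean log2 CPM of each gene list in each library, minus the mean of the 3 untreated libraries (horizontal axis). Grey circles are untreated and orange triangles chloroquine libraries, numbered by replicate. Lysosomal and autophagy lists sit near 0 in all 6 libraries, while in the interferon and MHC lists untreated 3 lies among the chloroquine libraries and chloroquine 3 lies highest.

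Interferon-stimulated genes were mostly higher. Of 38 type I interferon response genes, 37 were higher with chloroquine and 1, Ifi27, lower, with a median of 0.62 against -0.0044 over all features. A p under 0.05 was found for 11 of the 38, all higher, against 2.06% of all features. Only Oas2 had no overlap between the groups, against 3.69% of all features higher without overlap. Oas2, an antiviral synthetase of short RNA signals, was at 15.6, 9.05 and 35.1 CPM in untreated libraries and 35.3, 38.0 and 67.5 CPM with chloroquine, higher by 1.4 (SE 0.45, unadjusted p = 0.00857, adjusted p = 0.999, limma). Untreated 3 came within a fraction of a CPM of the lowest chloroquine library, while untreated 1 and untreated 2 were far lower. Usp18, which damps the receptor, was at 25.8, 17.6 and 45.3 and 39.3, 43.9 and 70.0 CPM (0.85, SE 0.34). Untreated 3 lay inside the chloroquine range of Usp18.

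Over the whole list, the mean log2 CPM was 4.97, 4.53 and 5.72 in the untreated libraries and 5.52, 5.44 and 6.13 with chloroquine. The untreated libraries thus differed among themselves by more than the groups did. The median difference was 0.37 without untreated 2, 0.41 without chloroquine 3 and 0.93 without untreated 3.

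All 19 genes of nucleic acid sensing were higher, with a median of 0.31, and 2 of them, Irf7 and Tlr9, had a p under 0.05, against 2.06% of all features. Tlr9, an endosomal receptor for DNA that needs acidic compartments to signal, was at 8.21, 5.43 and 27.1 CPM against 19, 17 and 49.3 CPM (1.24, SE 0.52). Tlr7, its relative for RNA, was at 12.9, 11.5 and 17.4 against 11.7, 14.1 and 19.7 CPM (0.11, interval -0.55 to 0.76). Irf7, which drives interferon transcription, was higher by 1.02, the RNA receptor Tlr3 by 0.84 and the cytosolic DNA sensor Cgas by 0.71. Without untreated 2 these were 0.54 for Tlr3 and 0.19 for Cgas. Irf7, Zbp1, Ifih1 and Ddx58 are in both lists, so the counts are not independent. Without chloroquine 1 the median of the sensing list was 0.47, and with each library left out in turn it ran from 0.226 to 0.473.

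Genes induced by interferon gamma lay higher as well. Of 23 genes in the table, 21 were higher (median 0.53), 3 with a p under 0.05 against 2.06% of all features. Cxcl9, a chemokine that draws T cells and is a classical interferon gamma target, was at 12, 4.70 and 13.4 CPM in untreated libraries and 27.7, 31.8 and 31.2 CPM with chloroquine. All 3 chloroquine libraries lay above all untreated ones, by 1.73 (SE 0.45, unadjusted p = 0.00196, adjusted p = 0.999, limma). Its neighbour on chromosome 5, the related chemokine Cxcl10, was at 46.6, 39.2 and 81.5 and 101, 67.6 and 125 CPM (0.84, SE 0.38), with untreated 3 inside the chloroquine range. The immunity GTPases Igtp (0.83, SE 0.35) and Irgm2 (0.75) were higher too. Gm4951, a gene of the interferon-inducible GTPase family outside the lists, was at 5.01, 1.26 and 8.45 and 9.58, 12 and 17.2 CPM without overlap (1.74). The list median was 0.20 without chloroquine 3, 0.32 without untreated 2 and 0.91 without untreated 3.

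A core of the interferon-stimulated response element was searched as GAAANNGAA on both strands in the same 250-base windows. It was present for 7.67% of the genes in the table with a window. Of the lists it was present in 12 of 26 type I interferon genes with a window, in 12 of 18 interferon gamma genes and in 4 of 17 MHC class I genes. Among genes with an unadjusted p under 0.05 it was present in 37 of 232 that were higher (15.9%) and in 17 of 146 that were lower (11.6%). The stretches shown are those of the 2 members with the smallest p in each interferon list that hold a match outside annotated exons. Matches are in capitals, and overlapping matches appear as 1 block. They lie at chr5:120777680-120777779 (minus strand) for Oas3, chr1:173942493-173942592 (minus strand) for Ifi203, chr5:92328200-92328299 (minus strand) for Cxcl9 and chr11:58199456-58199555 (plus strand) for Igtp:
Oas3: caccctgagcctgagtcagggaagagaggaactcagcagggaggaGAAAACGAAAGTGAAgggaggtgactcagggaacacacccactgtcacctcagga
Ifi203: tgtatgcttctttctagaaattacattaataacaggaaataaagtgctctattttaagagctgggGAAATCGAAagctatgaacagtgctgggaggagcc
Cxcl9: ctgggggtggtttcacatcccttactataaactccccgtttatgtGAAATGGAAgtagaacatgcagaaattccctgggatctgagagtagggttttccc
Igtp: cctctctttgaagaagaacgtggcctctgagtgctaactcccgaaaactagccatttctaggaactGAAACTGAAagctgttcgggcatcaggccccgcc
Oas3, a second synthetase of the Oas family, was higher by 1.07 (SE 0.44) and Ifi203, a nuclear DNA-binding protein, by 0.87. In Oas3 the capitals cover 2 matches that share their middle GAA. A match describes letters in the window and does not show that a factor was bound.

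Antigen presentation genes were higher along with the interferon lists. Of 19 MHC class I and peptide loading genes, 18 were higher (median 0.45), 5 of them with a p under 0.05 and none without overlap between groups. Over all features 2.06% were higher with a p under 0.05 and 3.69% higher without overlap. The peptide transporter Tap1 was at 33.4, 36.4 and 83.0 CPM against 71.3, 65.6 and 153 CPM (0.94, SE 0.39), with untreated 3 above chloroquine 1 and chloroquine 2. H2-T22 was higher by 0.64, H2-Q7 by 1.12 and H2-Q6 by 1.23, and H2-T24, which is outside the list, by 0.82 without overlap (SE 0.24). The H2-Q and H2-T genes are close copies of one another, so reads shared between them make each value uncertain. Of 9 MHC class II genes, 8 were higher (median 0.75) but none had a p under 0.05. H2-Ab1, a class II chain, was at 57.0, 30.8 and 135 CPM against 73.9, 75.4 and 313 CPM, so that chloroquine 3 lay far above the other 5 libraries. The class I median was 0.26 without chloroquine 3, 0.73 without chloroquine 1 and 0.74 without untreated 3. The class II median was 0.14 without chloroquine 3, 0.48 without untreated 1, 0.46 without untreated 2 and 1.21 without untreated 3.

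Markers of lymphocytes lay higher in the same libraries. Of 19 T cell markers in the table (20 listed), 18 were higher (median 0.66), and their summed level was 18.9, 29.1 and 37.4 CPM in the untreated and 33.0, 29.6 and 74.6 CPM in the chloroquine libraries. Of 7 natural killer cell markers (11 listed), all 7 were higher (median 1.43), with sums of 5.35, 5.16 and 9.31 against 11.0, 10.02 and 20.8 CPM. Their part in the interferon and MHC values was not tested. Among single markers the T cell surface protein Cd5 differed by 1.75, the killer cell factor Eomes was at 0.180, 1.38 and 0.542 against 1.52, 2.17 and 2.52 CPM (1.98) and the killer cell receptor Klrk1 differed by 1.57. These levels rest on few reads, Eomes on 4 in untreated 1, and the T cell receptor chain Cd3g and the killer cell receptor Ncr1 had 0 reads in 1 untreated library each. The 4 B and plasma cell markers in the table were all higher, with sums of 6.87, 5.03 and 19.8 against 9.66, 23.8 and 48.8 CPM. Without chloroquine 3 the T cell median was 0.25 and the dendritic cell median 0.075, and without untreated 1 they were 0.35 and 0.35. The T cell median was 1.01 without chloroquine 2 and 1.0 without untreated 3, and the natural killer cell median was 0.84 without untreated 2.

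Macrophage and monocyte markers summed to 1402, 1723 and 1493 and 1370, 1564 and 1775 CPM, with 11 of 19 higher (median 0.063, from -0.03 to 0.164 with 1 library left out). Within them the monocyte gene Ly6c2 (1.67) and the interferon-inducible Fc receptor Fcgr1 (0.70) had a p under 0.05, against 2.06% of all features higher. In dendritic cell markers, 8 of 9 were higher (11 listed), with sums of 586, 798 and 581 against 623, 683 and 606 CPM and the cross-presenting cell marker Clec9a at 1.15.

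Inflammatory cytokines and chemokines outside the interferon lists were mixed, with 10 higher and 16 lower of 26 (median -0.10). The macrophage growth factor Csf1 was at 124, 124 and 131 against 131, 159 and 198 CPM (0.35) and the neutrophil attractant Cxcl2 at 2.74, 2.61 and 2.20 against 1.15, 1.33 and 1.35 CPM (-0.98). The alarmin Il33 differed by -0.86. None of the 26 had a p under 0.05, and the list median was 0.011 without untreated 3, -0.031 without chloroquine 1, -0.061 without untreated 2 and -0.26 without untreated 1.

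Genes of glucose use were lower as a group. Of 19 glycolysis genes, 18 were lower with a median of -0.35, 1 of them with a p under 0.05 against 1.33% of all features. The glucose transporter Slc2a1 was at 186, 282 and 139 CPM in untreated libraries and 60.1, 129 and 176 CPM with chloroquine (-0.81, SE 0.37), with untreated 3 below chloroquine 3. Phosphoglycerate kinase Pgk1 was at 617, 572 and 349.8 and 307, 392 and 305 CPM (-0.58), lactate dehydrogenase Ldha at -0.41 and pyruvate kinase Pkm at -0.39. The list means were 7.48, 7.58 and 6.96 log2 CPM in the untreated libraries and 6.77, 7.14 and 7.0 with chloroquine, and the groups overlapped through untreated 3. Without untreated 3 the median was -0.56, and with each library left out in turn it ran from -0.565 to -0.263.

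Hypoxia genes went the same way. Of 19 in the table, 18 were lower (median -0.43), 2 with a p under 0.05, against 1.33% of all features. The collagen prolyl hydroxylase P4ha1 was at 197, 134 and 116 CPM against 98.0, 119 and 82.4 CPM (-0.56, SE 0.19), with chloroquine 2 above untreated 3. Ankrd37, a small hypoxia-induced ankyrin protein, was at 4.58, 7.40 and 2.39 and 1.36, 2.91 and 1.15 CPM (-1.38, SE 0.53). The kinase Pdk1, which holds pyruvate back from mitochondria, differed by -0.55 and the oxygen sensor Egln1 by -0.44. Without chloroquine 1 the median was -0.22. The core bound by hypoxia-inducible factors was searched as ACGTGC on both strands. It was present for 7.75% of the genes in the table with a window, for 8 of 14 hypoxia genes and for 6 of 19 glycolysis genes. Genes with an unadjusted p under 0.05 held it in 16 of 146 that were lower (11.0%) and 11 of 232 that were higher (4.74%). The stretches shown are those of the 2 hypoxia genes and the 1 glycolysis gene with the smallest p that hold the core outside annotated exons, at chr10:59323196-59323295 (plus strand) for P4ha1, chr8:46000001-46000100 (minus strand) for Ankrd37 and chrX:106186923-106187022 (plus strand) for Pgk1. Capitals mark the core, which reads GCACGT where it lies on the other strand:
P4ha1: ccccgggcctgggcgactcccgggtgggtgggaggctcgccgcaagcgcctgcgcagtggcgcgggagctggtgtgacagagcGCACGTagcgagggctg
Ankrd37: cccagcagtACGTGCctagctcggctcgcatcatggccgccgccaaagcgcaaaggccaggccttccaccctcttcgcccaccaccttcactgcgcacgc
Pgk1: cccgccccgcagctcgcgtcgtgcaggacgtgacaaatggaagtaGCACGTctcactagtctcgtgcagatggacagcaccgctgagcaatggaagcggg

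Ribosomal protein genes were the other large group on the lower side. The authors' deposited table of KEGG pathways for this comparison gives the Ribosome set, of 131 genes, a p of 6.6e-05 and a false discovery rate of 0.0162, the only one of 246 sets under 0.05. Both values are for a single direction, lower with chloroquine. In the fit used here, 84 of 85 cytosolic ribosomal protein genes were lower, with a median of -0.289, 7 with a p under 0.05 and 6 without overlap between groups. Over all features 1.33% were lower with a p under 0.05 and 3.72% lower without overlap. Their mean was 7.44, 7.19 and 6.86 log2 CPM in the untreated libraries and 6.82, 7.01 and 6.65 with chloroquine, so that untreated 3 lay below chloroquine 2. This group was chosen because the authors' table calls it on these same libraries, so its count is not independent support. The median was -0.16 without untreated 1, -0.18 without chloroquine 3 and -0.46 without untreated 3. Of 42 mitochondrial ribosomal protein genes, 26 were lower (median -0.045). Oxidative phosphorylation genes were lower for 23 of 29 (median -0.12, -0.0070 without untreated 1 and -0.054 without chloroquine 3), none with a p under 0.05.

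**Figure D3:**
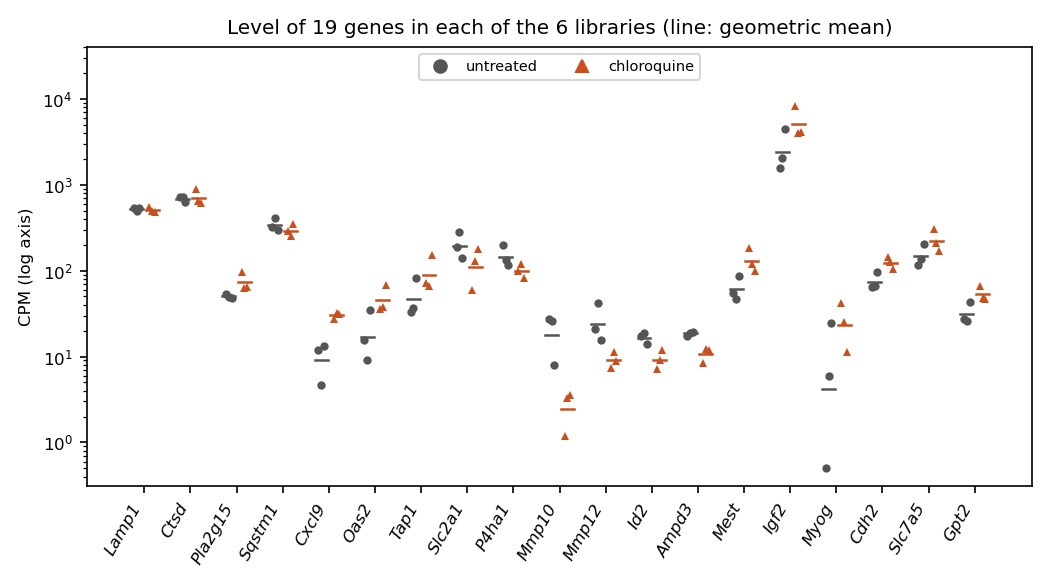
Level in CPM (log axis) of 19 named genes in the 3 untreated (grey circles) and 3 chloroquine libraries (orange triangles), with the geometric mean of each group as a line. Mmp10, Ampd3, Id2, Mmp12, Cxcl9 and Cdh2 show no overlap between groups, while those of Lamp1 and Ctsd overlap and Myog runs from 0.499 to 24.4 CPM within the untreated group.

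Immediate early genes, which respond within minutes to growth signals and to handling of tissue, were lower for all 16 members (median -0.39). Egr2 alone had a p under 0.05 (-0.81), against 1.33% of all features lower. Untreated 2 was the highest of the 6 libraries in the best known of the immediate early genes. Fosb was at 8.85, 41.0 and 6.03 CPM in the untreated libraries and 3.82, 10.4 and 5.85 CPM with chloroquine, and the phosphatase Dusp1 at 36.1, 174 and 50.3 and 31.3, 48.8 and 49.4 CPM. The list median was -0.075 without untreated 2, -0.24 without chloroquine 1, -0.59 without chloroquine 3 and -0.67 without untreated 3. Fosl2 was the only member without overlap (-0.33), against 3.72% of all features lower without overlap. Oxidative stress genes driven by NRF2 were lower for 12 of 14 (median -0.28, -0.17 without untreated 1), among them the sulfiredoxin Srxn1 (-0.52) and the glutathione synthesis enzyme Gclc (54.6, 38.3 and 46.9 against 36.4, 37.2 and 36.5 CPM, -0.33), none with a p under 0.05. Among Trp53 targets the polo-like kinase Plk2 was lower without overlap (-0.50, SE 0.21), while the list was split 8 to 7. Of 23 mitotic genes, 12 were higher (median 0.019, from -0.138 to 0.136 with 1 library left out). Of 20 genes of entry into S phase, 15 were lower (median -0.10, -0.0030 without untreated 1, -0.0090 without chloroquine 3 and -0.16 without untreated 2). Neither proliferation list had a member with a p under 0.05.

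The smallest p of the whole table belonged to a protease. Mmp10, stromelysin 2, which digests matrix proteins (chromosome 9, 7502352 to 7510240, GRCm38), was at 27.6, 25.6 and 7.87 CPM in untreated libraries and 1.2, 3.33 and 3.55 CPM with chloroquine. All chloroquine libraries lay below all untreated ones, with a difference of -2.87 (SE 0.64, unadjusted p = 0.000598, adjusted p = 0.999, limma), and untreated 3 was the nearest to them. The macrophage elastase Mmp12 was at 20.9, 42.2 and 15.7 and 7.34, 11.2 and 8.88 CPM, also without overlap (-1.41, SE 0.46). The collagenase Mmp13 was at 20.6, 88.1 and 43.2 and 7.71, 9.53 and 23.2 CPM (-1.84, SE 0.72), with 1 overlapping pair of libraries. Of the 24 metalloproteinases, plasminogen genes and inhibitors, 13 were lower and 11 higher (median -0.031, from -0.115 to 0.049 with 1 library left out). The 4 with a p under 0.05, among them the 3 just named, were all lower, against 1.33% of all features. The list holds the gene of smallest p and was chosen with earlier results known, so this count is not independent support. Without overlap 4 members were lower, against 3.72%, namely Mmp10, Mmp12, the urokinase Plau and Mmp19.

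Keratinocyte genes, which any skin taken with a tumor would express, were lower for 10 of 12 in the table (14 listed, median -0.78). The median was -1.96 without untreated 1, and with each library left out in turn it ran from -1.959 to -0.548. The keratinocyte sums were 20.7, 38.2 and 80.01 CPM in the untreated and 35.7, 14.6 and 40.6 CPM in the chloroquine libraries. The keratin Krt6a had 0 reads in untreated 1 and in all 3 chloroquine libraries. Fgfbp1, a carrier of fibroblast growth factors often made by squamous epithelium, was at 5.49, 4.63 and 1.24 and 0.400, 0.769 and 0.905 CPM (-2.28, no overlap). The part of skin cells in the values of Mmp10 and Fgfbp1 was not tested.

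Id2, an inhibitor of basic helix-loop-helix factors that holds back differentiation (chromosome 12, 25093799 to 25097140), was at 17.2, 19 and 13.9 CPM in untreated libraries and 7.18, 9.02 and 11.9 CPM with chloroquine. The groups did not overlap and the difference was -0.85 (SE 0.24). Its relatives had positive differences: Id1 differed by 0.059, Id3 by 0.35 and Id4 by 0.95. In the wider list of Id proteins and BMP signalling 12 of 19 were lower. The forkhead gene Foxs1 was at 16.7, 22.4 and 14.6 and 4.83, 8.13 and 12.6 CPM (-1.16, no overlap).

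Imprinted growth genes were higher. Of 18 in the table, 17 were higher, with a median of 0.46 and 5 with a p under 0.05, against 2.06% of all features. The list was chosen with earlier results of these data known, so this count is not independent support. Mest, a paternally expressed gene of embryonic mesoderm (chromosome 6, 30723547 to 30748465), was at 54.3, 46.7 and 86.6 CPM in untreated libraries and 182, 121 and 99.0 CPM with chloroquine. All chloroquine libraries lay above all untreated ones, by 1.10 (SE 0.26, unadjusted p = 0.00101, adjusted p = 0.999, limma), the smallest p among the higher genes. The growth factor Igf2 was among the most abundant RNAs at 1547, 2059 and 4504 CPM against 8175, 3970 and 4113 CPM (1.07, SE 0.36), with untreated 3 inside the chloroquine range. Its neighbour H19, a noncoding RNA of the opposite parental allele, differed by 1.44, although the alleles cannot be told apart here. Peg10 (0.65) and Sgce (0.58), imprinted neighbours read from a shared promoter region, were both higher with a p under 0.05. The list means were 4.51, 4.58 and 5.13 log2 CPM against 5.57, 5.29 and 4.89, and the median was 0.74 without untreated 3 and 0.28 without untreated 1.

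Muscle genes varied widely between the untreated libraries. The myogenic factor Myog was at 0.499, 5.92 and 24.4 CPM in untreated libraries and 42.3, 25.4 and 11.3 CPM with chloroquine (2.47, SE 1.04), and the fusion protein Mymk at 0.499, 1.26 and 28.1 and 24.6, 24.6 and 10.7 CPM (2.84, SE 1.2). Both were lowest in untreated 1, where Myod1 was also at 0.779 CPM while Myf5, the gene whose promoter drives Cre in the line, was at 54.4 CPM. Myf5 itself was at 54.4, 40.5 and 28.7 and 26.7, 43.6 and 27.7 CPM (-0.32). Of 7 myogenic genes in the table (10 listed), 5 were higher (median 0.15, -0.076 without chloroquine 1 and from -0.076 to 0.486 over all 6 libraries left out in turn), and their sums were 362, 553 and 444 against 608, 406 and 427 CPM. The fibre markers, which host muscle at the edge of a tumor also expresses, summed to 6046, 785 and 3929 and 4147, 3105 and 3370 CPM, with actin Acta1 at 342, 34.3 and 351 and 464, 498 and 248 CPM and troponin Tnnt1 higher by 1.52 (SE 0.59). The order of the libraries differed between the 2 lists, since untreated 1 was lowest in Myog, Mymk and Myod1 but highest in Myf5 and in the fibre sum.

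Matrix genes were mostly higher, while the cadherins were split. N-cadherin, Cdh2, an adhesion molecule of mesenchymal and muscle precursor cells, was at 64.1, 65.5 and 97.6 CPM in untreated libraries and 142, 125 and 106 CPM with chloroquine, without overlap (0.73, SE 0.21). Of the 8 cadherins in the table, 4 were higher and 4 lower (median -0.068). Of 26 collagens and matrix genes, 20 were higher (median 0.17, 0.081 without chloroquine 1, 0.27 without chloroquine 2, 0.083 without untreated 1, 0.10 without untreated 2 and 0.34 without untreated 3). The proteoglycan Spock2 was at 8.49, 6.05 and 25.2 and 34.6, 22.7 and 46.6 CPM (1.61, SE 0.47), with untreated 3 above chloroquine 2, and the collagen Col11a1 differed by 1.06. The fibroblast collagen Col14a1 was at 75.7, 65.2 and 157 and 247, 180.0 and 159 CPM (1.06, no overlap), and fibroblast markers summed to 408, 435 and 551 against 666, 535 and 524 CPM. Their part in the matrix values was not tested. The apelin receptor Aplnr, an endothelial gene, was higher by 0.71 (SE 0.27) while endothelial markers summed to 409.9, 736 and 562 and 439.9, 552 and 547 CPM.

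Genes that respond to amino acid supply were mostly higher. Of 20 amino acid transporters, 16 were higher (median 0.28), and the large neutral amino acid carrier Slc7a5 was at 115, 137 and 202 CPM against 307, 211 and 169.9 CPM (0.60, SE 0.23), with untreated 3 above chloroquine 3. Of 29 targets of ATF4, the factor of the amino acid response, 20 were higher (median 0.20). Gpt2, the mitochondrial alanine transaminase (chromosome 8, 85492576 to 85527560), was at 27.6, 25.9 and 42.7 and 66.7, 47.6 and 47.0 CPM without overlap (0.76, SE 0.22). Sesn2, which restrains mTORC1 when leucine is short, was at 16.9, 26.7 and 22.8 and 28.3, 28.2 and 40.9 CPM without overlap (0.55, SE 0.22), and the pseudokinase Trib3 was at 3.10, 15.7 and 12 and 14.6, 18.9 and 18.0 CPM (1.03). Without untreated 1, which was lowest in Sesn2 and Trib3, the ATF4 median was 0.086 and that of the transporters 0.16. In endoplasmic reticulum chaperones 11 of 16 were higher (median 0.074, -0.033 without untreated 2). The disulfide isomerase Pdia4 alone had a p under 0.05 (0.40), against 2.06% of all features higher.

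The genes of purine handling were split 9 to 8. Ampd3, the AMP deaminase of red cells and many tissues (chromosome 7, 110768206 to 110812405), was at 17.6, 19 and 19.4 CPM in untreated libraries and 8.41, 12.2 and 11.8 CPM with chloroquine. The groups did not overlap, with a difference of -0.81 (SE 0.19, unadjusted p = 0.000989, adjusted p = 0.999, limma). The nucleoside transporter Slc28a2 was at 1.58, 1.32 and 3.16 and 4.30, 5.24 and 8.25 CPM, higher without overlap (1.61, SE 0.42). The phosphorylase Pnp2 was higher by 0.79 (SE 0.37). Erythroid markers summed to 65.8, 160.2 and 31.7 and 49.1, 124 and 25.8 CPM. Their part in the Ampd3 values was not tested.

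The rest of the 30 genes with the smallest p fell in no common group. Higher without overlap were the ATP-gated channel P2rx5 (1.86, 2.92 and 5.07 against 8.14, 6.45 and 6.24 CPM, 1.19), Isoc1 (0.71), the fatty acid epoxygenase Cyp2j6 (1.88) and the phosphorylase kinase subunit Phkg2 (0.65). Lower without overlap were Tspyl5 (31.8, 41.3 and 32.7 against 14.8, 20.7 and 21.4 CPM, -0.90, SE 0.23), the mechanosensitive potassium channel Kcnk2 (6.29, 6.35 and 8.0 against 3.66, 3.01 and 4.04 CPM, -0.95), the calcium channel subunit Cacng4 (-1.54), the apolipoprotein Apob (7.65, 7.52 and 2.96 against 1.63, 2.07 and 1.64 CPM, -1.65), the adhesion protein Igsf11 (-2.71) and the muscle ribosomal protein Rpl3l (-4.12), which had 0 reads in chloroquine 1. The olfactory receptor gene Olfr805 (-2.34) and the coding gene Gm21887 (2.36) rested on few reads. Gm9025 (1.97), Gm11410 (-1.59), Gm7781 (-2.21) and Gpr137b-ps (-0.59) are annotated pseudogenes, whose reads may belong to their parent genes. Gm26749 (1.02) and Gm20717 (1.16) are annotated antisense RNAs, and whether counting used strand is not given in the sources used here, so reads of the opposite gene cannot be told apart from theirs.

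In the authors' deposited KEGG table, 96 sets have a positive and 150 a negative statistic for chloroquine against no treatment. Each p-value of a set is for the direction of its statistic only. In the authors' deposited table the sets of smallest p on the lower side, after Ribosome, are Oxidative phosphorylation (p = 0.00539), IL-17 signaling (p = 0.0119), MAPK signaling (p = 0.0235), Glycolysis / Gluconeogenesis (p = 0.0261), Carbon metabolism (p = 0.0265), Mineral absorption (p = 0.0276) and Phototransduction (p = 0.0282), none with a false discovery rate under 0.05. On the higher side the authors' deposited table lists Antigen processing and presentation first (p = 0.00169, false discovery rate 0.416). In the authors' deposited table it is followed by Natural killer cell mediated cytotoxicity (p = 0.0342), B cell receptor signaling (p = 0.0346), Other types of O-glycan biosynthesis (p = 0.102), Cell adhesion molecules (p = 0.102), Th1 and Th2 cell differentiation (p = 0.109), Renin secretion (p = 0.117) and Chemokine signaling (p = 0.119).

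Chloroquine was also given on top of ADI-PEG20, and that pair of groups shares no library with the pair above. No feature passed there either: 0 of 16335 had an adjusted p under 0.05 (0%) and 559 an unadjusted p under 0.05 (3.42%). In the comparison within ADI-PEG20 the number with an unadjusted p under 0.05 was 1504 without ADI-PEG20 replicate 2, 1360 without ADI-PEG20 replicate 3 and 179 without ADI-PEG20 replicate 1, which had 22.8% of its reads on Gm26917. Across all features the differences of the 2 comparisons had a Pearson r of -0.041, given as a description across genes that are not independent. Of the 555 features with an unadjusted p under 0.05 without ADI-PEG20, 223 (40.2%) had the same sign with it, and so had 44.2% of all features. An unadjusted p under 0.05 in both comparisons was found for 4 features with the same sign and for 7 with opposite signs. The type I interferon median was -0.033 when chloroquine was added to ADI-PEG20, the glycolysis median 0.17, the hypoxia median 0.38, the imprinted gene median -0.064 and the ribosomal protein median 0.194. ATF4 targets and amino acid transporters had a positive median in both comparisons, at 0.24 and 0.050. Lysosomal enzymes were at 0.073 and the autophagy machinery at -0.030. Set against the same 3 untreated libraries, ADI-PEG20 alone had medians of 0.41 for type I interferon, -0.42 for glycolysis, -0.51 for hypoxia and 0.078 for imprinted genes. Both drugs together had 0.53, -0.36, -0.27 and -0.30 in the same order. For the first 3 of these lists the signs were those of chloroquine alone. All of these differences share the untreated libraries, so they are not independent of one another.

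The difference between the 2 effects was tested directly as an interaction, the chloroquine effect with ADI-PEG20 minus that without. No feature had an adjusted p under 0.05 in limma's test (0%), and 696 had an unadjusted p under 0.05 (4.26%). That count was 374 without ADI-PEG20 replicate 1, 427 without replicate 2 of both drugs, 1153 without ADI-PEG20 replicate 3, 1261 without untreated 3 and 1399 without ADI-PEG20 replicate 2. The genes Mmp10, Cxcl9, Mest and Ampd3 were named for a small p in chloroquine against untreated, which is one side of the interaction, so their interaction values are given as a description with no test. Mmp10 was at 3.77, 10.2 and 13.6 CPM with ADI-PEG20 and 5.24, 21.1 and 8.94 CPM with both drugs, a difference of 0.31, and its interaction was 3.18. Cxcl9 was at 23.7, 19.5 and 31.6 and 25.4, 8.88 and 32.6 CPM (-0.33, interaction -2.06). Mest was at 84.1, 52.2 and 68.7 and 50.6, 56.1 and 64.3 CPM (-0.24, interaction -1.34) and Ampd3 at 17.7, 13.5 and 15.6 and 17.9, 18.9 and 15.9 CPM (0.18, interaction 0.98). The groups of these 4 genes overlapped once ADI-PEG20 was present. Cdh2 (0.27) and Gpt2 (0.29) kept the sign they had without ADI-PEG20, and Pla2g15 was at 0.030.

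**Figure D4:**
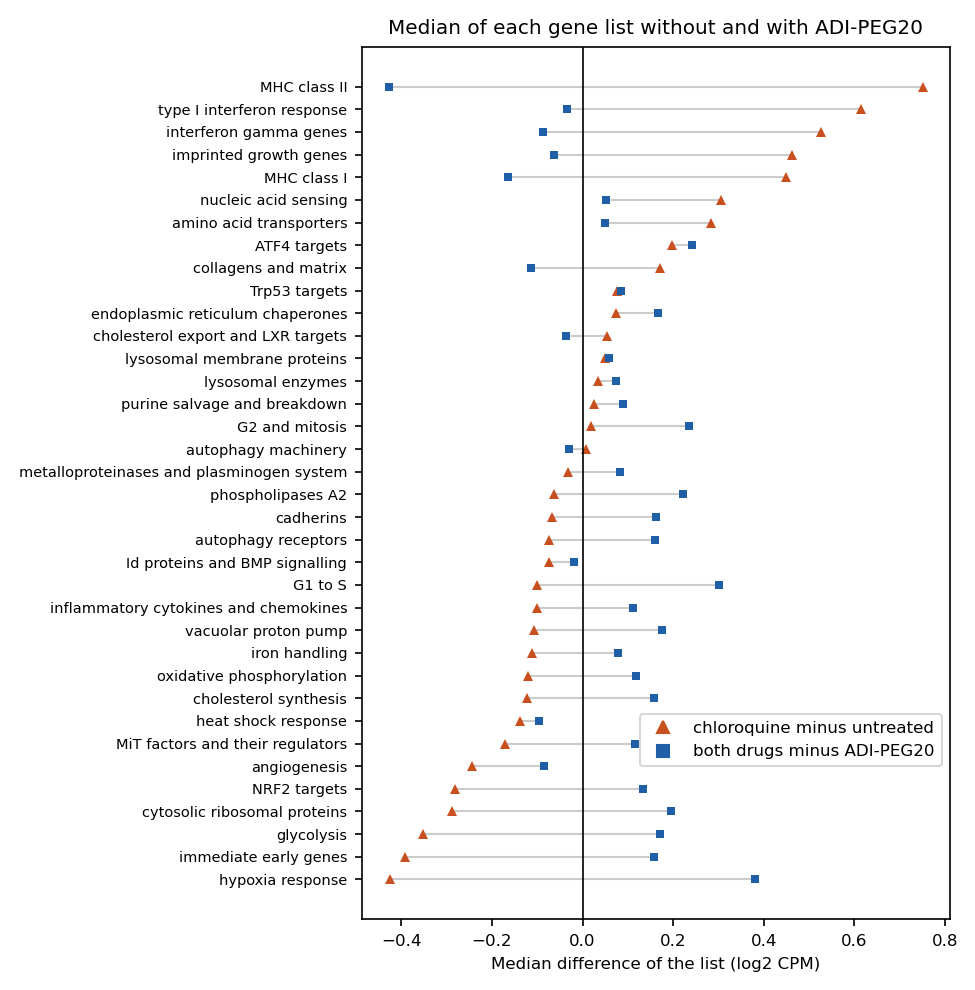
Median log2 CPM difference of each gene list for chloroquine against untreated (orange triangles) and for both drugs against ADI-PEG20 (blue squares), which use different libraries. The MHC class II, interferon, imprinted and MHC class I lists lead the first comparison and lie between -0.43 and -0.033 in the second, while the hypoxia list lies lowest in the first and highest in the second.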

How the data were processed

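RNA of 12 frozen tumors was sequenced after removal of ribosomal RNA, per the labels. The submitters' processing notes name the build mm10 and the tools limma, edgeR, Salmon 0.8.2, featureCounts 1.4.6-p5 of Subread, STAR 2.5.1a and bcl2fastq, without saying what each did. The authors deposited log2 CPM values, which stepped by whole reads once 0.5 read was taken off. Their signed linear fold change is a score and was not used. Per the file headers, the deposited table also holds the authors' p-values and adjusted p-values, and their KEGG table gives a test statistic, used as a score for direction, with a p-value per set.

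Of 16386 lines, 51 repeats of a feature were dropped. The log2 values of all 12 libraries were fitted together with limma 3.58.1 in R 4.3.3, with a trend in expression and Benjamini-Hochberg adjustment over 16335 features. The fit was first run on simulated data whose variance between libraries was capped. That run checked the code and does not show the power in these libraries. Tests were two-sided. Some genes that the naming rule takes are not reported here. Genes named are the 15 higher and 15 lower of smallest p among those with a mean of at least 0 log2 CPM in 1 group and no overlap, up to 4 members of each list by p, and genes close to the action of chloroquine. Ifi203, Plau, Mmp19, H19, Id1, Id3 and Id4 were added after their values were seen. The members and lists were chosen with earlier results of these data known. Positions and biotypes are those of GENCODE for GRCm38. Alternatives were a replicate block, only the groups compared in the fit, voom weights without and with library quality weights, a filter, another pseudocount, 2 other scalings and each library left out. The depth of 15501998 to 24960414 reads per library sets the counting error of low genes.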

Additional observations from a re-analysis of the deposited data

How the results depend on the processing

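The number of genes with an adjusted p under 0.05 was 0 in each of the 3 comparisons under every alternative run. With an unadjusted p under 0.05, chloroquine against untreated gave 408 to 1356 genes when each library was left out in turn, chloroquine added to ADI-PEG20 179 to 1504, and the interaction 374 to 1399. Between untreated and chloroquine libraries the same replicate numbers did not pair (r of deviations 0.0856, -0.0167 and 0.135), and the replicate block gave 792 genes at an unadjusted p under 0.05 and 0 adjusted. Scaled by total reads, the median of the autophagy machinery was 0.061, Lamp1 was at 0.039 and Lamp2 at 0.033. With library quality weights the medians were 0.403 for the type I interferon list, 0.302 for interferon gamma and 0.343 for MHC class II, and Tlr7 was at -0.031. Of the 125 genes described by their differences, 117 kept their sign under every alternative. The other 8 ran, with 1 library left out, from -0.074 to 0.026 for Lamp1, from -0.17 to 0.073 for Lamp2, from -0.135 to 0.125 for Ctsd, from -0.222 to 0.011 for Mitf, from -0.353 to 0.146 for Hmgcs1, from -0.429 to 0.079 for Tfrc, from -0.1 to 0.279 for Tlr7 and from -0.118 to 0.398 for Trp53. The list medians ran from -0.181 to 0.124 for cholesterol export, from -0.143 to 0.022 for Trp53 targets and from -0.019 to 0.106 for pericytes. The causes were not tested. Depth limits genes under about 1 CPM, which rest on few reads.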

Other observations

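Genes of blood vessel growth were lower for 10 of 15 members (median -0.24, and -0.057 without untreated 2). The apelin receptor Aplnr was the only member with an unadjusted p under 0.05, and it was higher, against 2.06% of all features higher. Its ligand Apln (-0.67), the decoy receptor Flt1 (-0.56) and the placental growth factor Pgf (-1.10) had negative differences. With 1 library left out these ran from -0.95 to -0.339 for Apln, from -0.754 to -0.211 for Flt1 and from -1.915 to -0.133 for Pgf, the last nearest to 0 without chloroquine 1. Heat shock genes were lower for 11 of 15 (median -0.14, and -0.010 without chloroquine 3), with the small chaperone Hspb1 at -0.63 (from -0.978 to -0.366 with 1 library left out). Phospholipases A2 were lower for 7 of the 11 in the table (16 listed, median -0.063). Of the other cell markers, 6 of 11 pericyte and smooth muscle genes, 3 of 5 neutrophil genes, all 4 mast cell genes, 6 of 8 adipocyte genes, 3 of 7 Schwann cell genes, 8 of 11 endothelial genes and all 6 erythroid genes were lower, none with an unadjusted p under 0.05. With 1 library left out the median ran from -1.283 to 0.161 for neutrophils, -0.654 to 0.248 for mast cells and -0.789 to 0.324 for Schwann cells. It ran from -0.247 to 0.091 for endothelium, -0.893 to 0.414 for erythroid cells and -0.771 to -0.026 for adipocytes. Abundant noncoding and mitochondrial RNAs were lower for 13 of 15 (median -0.23, and -0.093 without untreated 1).

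The genes Met, Cav1, Cav2 and Capza2 of chromosome 6 varied widely between tumors and in the same order of libraries within the untreated group, and were chosen here after their values were seen. Tes, a gene of the same stretch, did not share that order: it was at 1721, 94.7 and 146 CPM in the untreated libraries, low in untreated 2 where Met was highest, and at 47.0, 512 and 281 CPM in the chloroquine libraries. The receptor kinase Met was at 2710, 3618 and 358 CPM in the untreated and 188, 862 and 906 CPM in the chloroquine libraries, with 100.1, 1297 and 1163 CPM after ADI-PEG20 and 244, 2506 and 277 CPM after both. The caveola protein Cav1 was at 3348, 5353 and 426 CPM in the untreated and 328, 1101 and 818 CPM in the chloroquine libraries, with 195, 1615 and 1156 CPM after ADI-PEG20 and 314, 2945 and 421 CPM after both. The difference between chloroquine and untreated libraries was -1.53 for Met (SE 1.14, adjusted p = 0.999, limma), and the groups overlapped. Over the study Met was highest in untreated 1, untreated 2 and replicate 2 of both drugs, and in no chloroquine library. Those libraries also had the lowest means of the type I interferon list (4.97, 4.53 and 4.96 log2 CPM) and the MHC class I list (5.14, 5.14 and 5.40). Cxcl9 was lowest and Mmp10 highest in them as well. Whether Met is linked to these values was not tested.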
